A study of Rattus norvegicus with 40 samples.

Results

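Krt7, Krt19, Epcam, Prom1, Sox9, Cd24, Cd44 and Spp1 are genes used to mark the ductular reaction and liver progenitor cells. These 8 symbols were looked up in the gene counts of rat liver, and 7 of them were found among the 17337 genes counted. Krt7 was not analysed here. The samples were 40 RNA-seq libraries from 24 male Fischer 344 rats, in 8 groups of 4 rats. Rats of the treated groups received weekly intra-peritoneal injections of 50 mg/kg diethylnitrosamine (DEN), a carcinogen activated in hepatocytes, starting at 7 weeks of age. Non-tumoral (NT) liver was taken after 8 weeks of injections, after 14 weeks, and at 20 weeks, when 14 weeks of injections had been followed by 6 weeks without DEN. At 14 and 20 weeks 2 tumor nodules of each DEN rat were also sequenced, which gave 16 nodules. Rats of the same age that received no DEN served as controls at each time. DEN was diluted in olive oil, and the sources used here do not say whether the control rats received the oil.

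The ductular reaction is the outgrowth of small, irregular bile ducts at the edge of damaged portal tracts, seen when hepatocytes are injured or cannot divide. Its cells carry the genes of biliary epithelium, and a part of them is held to be able to form hepatocytes or bile duct cells. Most of the same genes are also switched on by hepatocytes under chronic injury and in some liver tumors, and several are expressed by immune or stromal cells. Keratin 19 is a filament protein of bile duct cells, EpCAM is an adhesion molecule of epithelia, prominin 1 sits on membrane protrusions, SOX9 is the transcription factor of the biliary lineage, CD24 is a small glycosylated surface protein, CD44 is a hyaluronan receptor, and osteopontin, the product of Spp1, is a secreted integrin and CD44 ligand.

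Start-site sequences were at hand for 5 of the 7 genes, as 6 windows of 300 bases, 250 before the annotated start and 50 after it (RefSeq, GRCr8). Those of Epcam (chr6:12649629-12649928, minus strand), Cd24 (chr20:48656227-48656526, plus strand) and Spp1 (chr14:5619755-5620054, minus strand) are shown, because Epcam and Cd24 varied together among nodules and Spp1 varied apart from them. Capitals mark matches to TGANTCA (AP-1), GGAATG (TEAD), TGGGAA (RBPJ) or ACAATG (SOX), on either strand.
Epcam: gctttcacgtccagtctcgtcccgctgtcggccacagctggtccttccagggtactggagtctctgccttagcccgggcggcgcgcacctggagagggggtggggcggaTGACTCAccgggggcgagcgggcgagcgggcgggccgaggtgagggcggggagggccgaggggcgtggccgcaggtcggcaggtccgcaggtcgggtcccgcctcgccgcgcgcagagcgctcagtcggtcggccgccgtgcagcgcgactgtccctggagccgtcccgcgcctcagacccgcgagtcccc
Cd24: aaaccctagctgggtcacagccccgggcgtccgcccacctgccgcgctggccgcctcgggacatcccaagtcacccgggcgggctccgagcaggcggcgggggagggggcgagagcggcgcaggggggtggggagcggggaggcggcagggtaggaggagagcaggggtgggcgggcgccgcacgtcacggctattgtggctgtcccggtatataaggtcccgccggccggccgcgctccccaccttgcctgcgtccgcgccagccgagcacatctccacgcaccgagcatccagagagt
Spp1: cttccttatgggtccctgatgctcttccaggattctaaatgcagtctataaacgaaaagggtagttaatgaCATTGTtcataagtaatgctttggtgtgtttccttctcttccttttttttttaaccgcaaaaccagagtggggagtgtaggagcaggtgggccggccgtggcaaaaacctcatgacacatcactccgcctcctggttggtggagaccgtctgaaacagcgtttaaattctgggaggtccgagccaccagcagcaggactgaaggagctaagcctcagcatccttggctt
The Epcam window held 1 AP-1 match, TGACTCA, starting 141 bases before the start site. The Spp1 window held a SOX match, CATTGT, 179 bases before the start site, and the Cd24 and Cd44 windows held no match to these motifs. The GC box GGGCGG, left in lower case, occurred 4 times in the Epcam window, 3 times in the Cd24 window and in neither the Spp1 nor the Cd44 window. Prom1 had 2 windows, of which 1 held a pair of GC boxes and the other an AP-1 match. Among 33469 windows of this length, 7.33% held the AP-1 letters, 14.2% TEAD, 25.7% RBPJ, 13.2% SOX and 33.1% the GC box. A match describes these letters only.

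Counted read pairs per library ran from 20528515 to 160622633, and the second highest was 39355849. The deepest library was the NT liver of rat H26 at 20 weeks. Levels are given as CPM, the counts of a gene relative to the size of its library, scaled between libraries by the trimmed mean of M-values (TMM), and are not corrected for gene length, so they are compared between samples and not between genes. At the median depth, before TMM scaling, 1 CPM stood for 30.5 counts with a sampling error of 18.1%. Control libraries had TMM factors of 0.769 to 0.850, so 1 CPM stood for fewer counts there and the error was larger. This matters for Prom1, Sox9 and Spp1 in the control rats, where single libraries held as few as 9, 4 and 4 counts. Intervals of counting cover counting error only. A nodule is named by its rat and a number, as in H23-T1. Since whole pieces of tissue were sequenced, more cells of a type and more RNA per cell cannot be told apart.

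A gene was called when it passed a fold threshold and an adjusted p (edgeR quasi-likelihood test, Benjamini-Hochberg over all genes tested). NT liver was held to a log2 fold change of 1 and an adjusted p of 0.01, and nodules to 0.5 and 0.05. After 8 weeks 2 of the 7 genes rose in NT liver, against 7.29% of 10812 genes tested, and after 14 weeks 7 of 7 rose, against 13.1% of all genes. At 20 weeks 4 of 7 rose, against 4.89%. In nodules 7 of 7 rose against control liver at 14 weeks (23.9% of all genes) and 7 of 7 at 20 weeks (23.6%). None of the 7 fell in any comparison. The median log2 fold change of the 7 genes was 0.88, 2.40 and 1.998 in NT liver at 8, 14 and 20 weeks and 2.73 and 2.77 in nodules at 14 and 20 weeks, while the median over all genes tested lay between -0.01 and 0.02. All DEN libraries lay above all control libraries for 4 of 7 genes in NT liver after 8 weeks, against 17.9% of all genes tested, for 7 of 7 after 14 weeks (25.9%) and for 7 of 7 at 20 weeks (16.2%). In nodules this held for 7 of 7 genes at 14 weeks (22.3% of all genes) and for 5 of 7 at 20 weeks (17.7%). The comparisons of NT liver and of nodules at 14 or 20 weeks share the same 4 control rats.

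**Figure D1:**
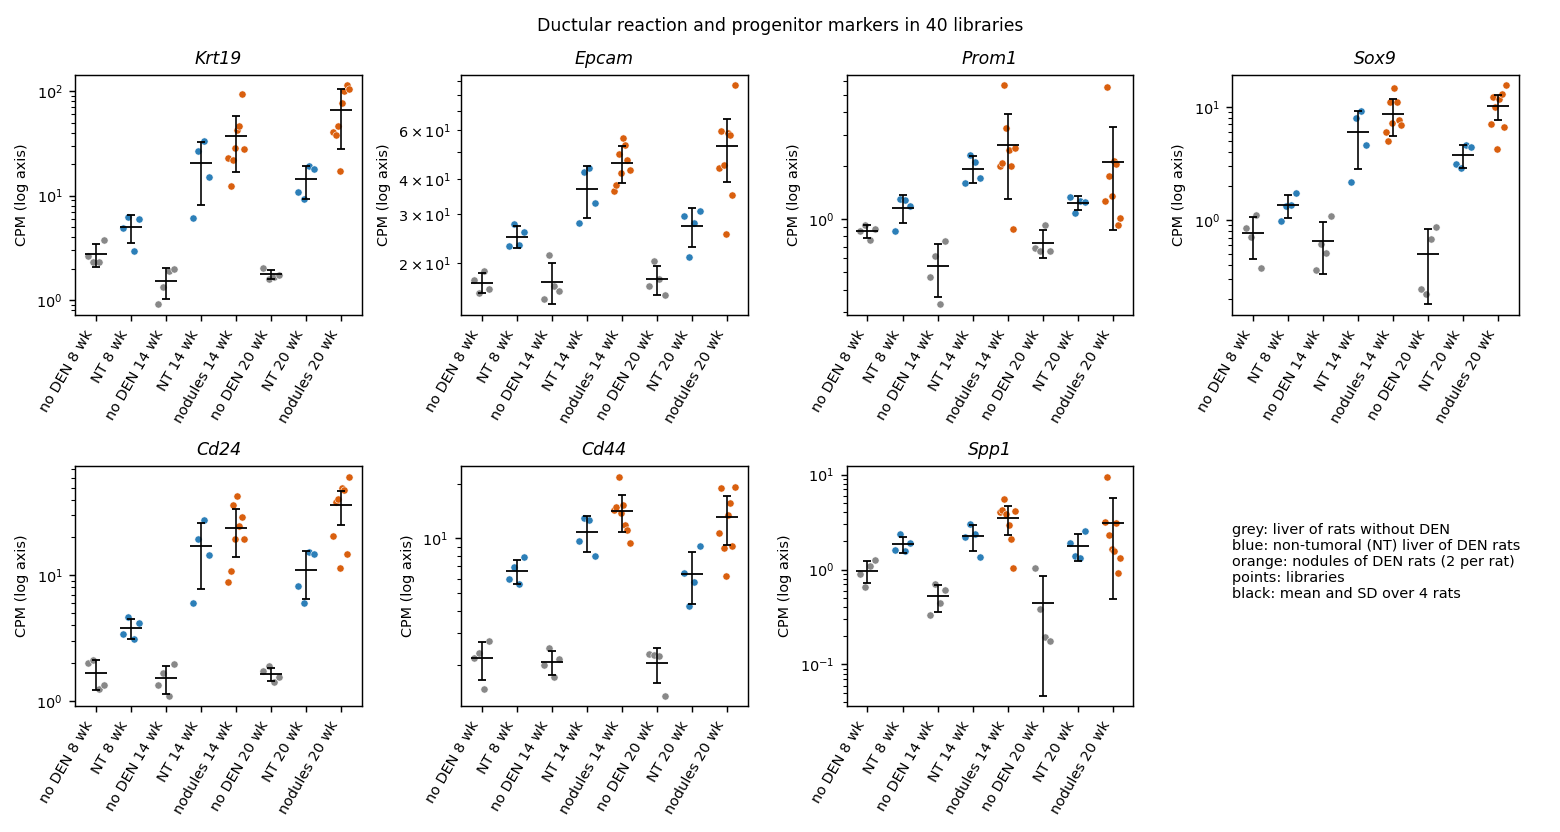
CPM (log axis) of the 7 genes in each of the 40 libraries, in 8 groups, with the mean and SD over 4 rats in black. Grey control libraries stay low at all times, blue NT libraries lie highest at 14 weeks on average, and the orange nodules of Krt19 run from 12.4 to 94.0 CPM at 14 weeks.

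Krt19 covered the widest range of the set. At 8 weeks its level was 2.62, 2.33, 2.32 and 3.72 CPM in the 4 control livers and 4.87, 6.23, 2.96 and 6.04 CPM in NT liver. The groups overlapped through NT liver of rat H17, and the log2 fold change of 0.88 ± 0.24 (SE, n = 4 rats a group) was not called (edgeR adjusted p = 0.0172). Without H17 it was 1.06 and passed (edgeR adjusted p = 0.00135). At 14 weeks control livers held 0.911, 1.32, 1.91 and 1.98 CPM, and NT livers 6.09, 27.0, 33.2 and 15.0 CPM. All NT livers lay above all controls, with rat F06 the lowest, and Krt19 rose by 3.74 ± 0.60 on the log2 scale (edgeR adjusted p = 0.00131). At 20 weeks the values were 2.01, 1.60, 1.66 and 1.76 CPM without DEN and 10.9, 9.23, 19.4 and 17.9 CPM in NT liver, again without overlap (log2 fold change 3.04 ± 0.27, edgeR adjusted p = 0.000214). Nodules at 14 weeks ran from 12.4 to 94.0 CPM with a median of 28.2, and at 20 weeks from 17.04 to 114 with a median of 61.4. Every nodule exceeded every control liver of its time, and the log2 fold changes were 4.58 ± 0.46 and 5.21 ± 0.46, a 37.1-fold difference at 20 weeks (edgeR adjusted p = 4.21e-05). In the order of group means, control livers were lowest, then NT liver at 8, 20 and 14 weeks, then nodules at 14 and 20 weeks. NT liver at 8 and 20 weeks did not overlap, while each later neighbour in that order overlapped the next.

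The 3 surface proteins EpCAM, prominin 1 and CD24 differed in how far they moved. Epcam was measured at 15.7 to 18.7 CPM in control livers at 8 weeks, and the NT livers at 22.99, 27.6, 23.2 and 25.9 CPM all lay above them. The change of 0.56 ± 0.09 on the log2 scale had a small adjusted p (edgeR, 0.00123) and missed the fold threshold. At 14 weeks the controls held 14.8, 21.4, 16.6 and 15.9 CPM and NT livers 27.97, 42.3, 44.1 and 32.9 CPM. Epcam rose by 1.12 ± 0.17 (edgeR adjusted p = 0.000443), with no overlap between the groups. The 20-week controls held 16.6, 20.4, 17.6 and 15.5 CPM and NT livers 29.5, 21.04, 27.8 and 30.7 CPM. These groups did not overlap either, although rat H25 lay close to control H14, and the log2 fold change of 0.65 ± 0.13 missed the fold threshold (edgeR adjusted p = 0.00553). Nodules had 36.4 to 56.0 CPM at 14 weeks (median 45.1) and 25.5 to 86.7 CPM at 20 weeks (median 51.4). Against controls Epcam rose by 1.39 ± 0.15 and 1.56 ± 0.18 on the log2 scale in nodules, the smallest rise of the 7 genes at 14 weeks.

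Prom1 was a low gene in every group. Control livers held 0.859, 0.922, 0.760 and 0.878 CPM at 8 weeks, and NT livers 0.860, 1.31, 1.28 and 1.18 CPM. The groups overlapped at rat F09, and the log2 fold change of 0.45 ± 0.21 was not called (edgeR adjusted p = 0.122). At 14 weeks Prom1 stood at 0.474, 0.619, 0.331 and 0.752 CPM without DEN and at 1.60, 2.30, 2.11 and 1.70 CPM in NT liver, a rise of 1.84 ± 0.26 (edgeR adjusted p = 0.000200) without overlap. In NT liver at 20 weeks Prom1 had 1.34, 1.08, 1.27 and 1.24 CPM, against 0.686, 0.663, 0.929 and 0.658 CPM without DEN. The log2 fold change of 0.75 ± 0.22 was not called (edgeR adjusted p = 0.0291), although all NT livers lay above the controls. Nodules ran from 0.881 to 5.68 CPM (median 2.26) at 14 weeks and from 0.927 to 5.54 CPM (median 1.55) at 20 weeks, where nodule H28-T1 at 0.927 CPM was just below control H15. Prom1 rose by 2.23 ± 0.40 and by 1.48 ± 0.42 against controls (edgeR adjusted p = 0.00161 and 0.0138).

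Cd24 had its call already at 8 weeks. Controls held 2.02, 2.11, 1.24 and 1.34 CPM then, and NT livers 3.38, 4.62, 3.10 and 4.18 CPM, all above them. The log2 fold change was 1.20 ± 0.21 (edgeR adjusted p = 0.00180). It was 1.20 when all 8 groups shared a fit (edgeR adjusted p = 0.0296) and 1.15 without the rats with letter F (edgeR adjusted p = 0.0104), and the adjusted p then missed its threshold. At 14 weeks the controls held 1.35, 1.65, 1.102 and 1.98 CPM and NT livers 5.96, 19.6, 27.7 and 14.6 CPM. Rat F06 was lowest, as for Krt19, and Cd24 rose by 3.50 ± 0.50. The 20-week controls held 1.71, 1.88, 1.42 and 1.54 CPM and NT livers 8.25, 6.03, 15.4 and 14.7 CPM, a rise of 2.78 ± 0.32 without overlap. Nodules ran from 8.83 to 42.7 CPM at 14 weeks (median 22.03) and from 11.5 to 60.9 CPM at 20 weeks (median 39.3). The rises against controls were 3.94 ± 0.38 and 4.44 ± 0.24, the latter 21.6-fold (edgeR adjusted p = 4.07e-06). Read pairs that aligned to several places were not counted, so pairs from any near-identical copy of Cd24 would be missing from these values.

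CD44 binds hyaluronan and osteopontin and is carried by many leukocytes as well as by progenitor cells. Cd44 had the largest fold change of the set at 8 weeks. Controls at 8 weeks had 2.19, 2.33, 1.48 and 2.72 CPM and NT livers 5.99, 6.92, 5.63 and 7.90 CPM. The groups were well apart, and the rise of 1.61 ± 0.19 on the log2 scale (edgeR adjusted p = 0.000164) was kept in all 14 alternatives tried. Cd44 stood at 2.01, 2.48, 1.73 and 2.15 CPM without DEN and 9.68, 13.02, 12.7 and 7.98 CPM in NT liver at 14 weeks, a rise of 2.40 ± 0.19. At 20 weeks the controls had 2.30, 2.26, 2.25 and 1.36 CPM and NT livers 6.48, 4.25, 5.75 and 9.06 CPM, a rise of 1.66 ± 0.26. NT livers lay above all controls at both times, and those at 20 weeks overlapped those at 8 weeks. Nodules had 9.42 to 21.8 CPM at 14 weeks (median 14.1) and 6.21 to 19.3 CPM at 20 weeks (median 12.1), with rises of 2.73 ± 0.20 and 2.66 ± 0.27.

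Sox9, the biliary transcription factor of the set, was low in control livers, with 4 to 32 counts a library. At 8 weeks it had 0.859, 0.703, 1.12 and 0.376 CPM without DEN and 0.987, 1.34, 1.35 and 1.75 CPM in NT liver. The groups overlapped, and the log2 fold change of 0.82 ± 0.31 was not called (edgeR adjusted p = 0.0588). At 14 weeks the values were 0.365, 0.619, 0.514 and 1.09 CPM without DEN and 2.18, 8.05, 9.11 and 4.60 CPM in NT liver, and at 20 weeks 0.245, 0.221, 0.685 and 0.878 CPM and 3.14, 2.86, 4.61 and 4.43 CPM. Sox9 rose by 3.21 ± 0.52 at 14 weeks and by 2.87 ± 0.36 at 20 weeks, without overlap at either time (edgeR adjusted p = 0.000959 and 0.000626). Nodules held 4.96 to 14.8 CPM at 14 weeks (median 7.44) and 4.29 to 15.5 CPM at 20 weeks (median 10.8). Against controls these were rises of 3.70 ± 0.37 and 4.26 ± 0.36, 12.99-fold and 19.1-fold.

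Spp1, the gene of osteopontin, a matrix protein of bile duct cells and activated macrophages, was also low. At 8 weeks it had 0.902, 0.659, 1.08 and 1.25 CPM without DEN and 1.59, 2.34, 1.58 and 1.89 CPM in NT liver. The groups did not overlap, but the log2 fold change of 0.93 ± 0.23 was not called (edgeR adjusted p = 0.0110). With upper-quartile scaling it was 1.02 and passed (edgeR adjusted p = 0.00692). At 14 weeks the controls held 0.328, 0.702, 0.441 and 0.615 CPM and NT livers 2.18, 3.02, 2.38 and 1.37 CPM, a rise of 2.12 ± 0.31 (edgeR adjusted p = 0.000230). At 20 weeks the controls held 1.03, 0.387, 0.196 and 0.176 CPM and NT livers 1.90, 1.39, 1.33 and 2.52 CPM. Control H13 stood far above the other 3, and the log2 fold change of 1.998 ± 0.47 was not called (edgeR adjusted p = 0.0109). Without H13 it was 2.80 and passed (edgeR adjusted p = 0.00205), as it did with DESeq2, without the filter on low counts and with all 8 groups in the fit. Nodules ran from 1.03 to 5.55 CPM at 14 weeks (median 3.92) and from 0.927 to 9.47 CPM at 20 weeks (median 1.97). Spp1 rose by 2.71 ± 0.33 and 2.77 ± 0.69 against controls, and nodule H28-T1 at 20 weeks lay below control H13. With the 20-week values of F03 left out the rise was 2.02, and it was 3.59 without H13.

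In the order of group means, control livers were lowest for all 7 genes, and NT liver at 14 weeks had the highest mean of the NT groups for all 7. Nodules at 20 weeks came last for Krt19, Epcam, Sox9 and Cd24, and nodules at 14 weeks for Prom1, Cd44 and Spp1. The 3 highest groups overlapped their neighbours within those 3 in every gene. The next step down that did not overlap was from NT liver at 14 to 20 weeks for Prom1, from 14 to 8 weeks for Cd44, from 20 to 8 weeks for Krt19, Sox9 and Cd24, and from the lowest DEN group to controls for Epcam and Spp1.

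**Figure D2:**
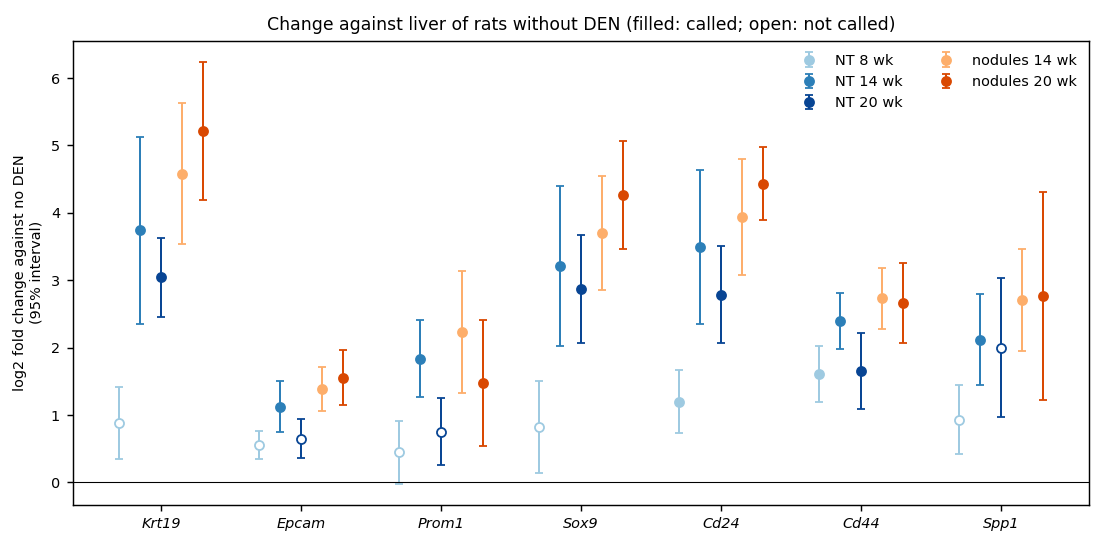
Log2 fold change against control liver of the same time for the 7 genes (vertical axis, with 95% intervals), for NT liver at 8, 14 and 20 weeks (blues) and nodules at 14 and 20 weeks (oranges). Filled points were called and open points were not: Krt19, Sox9 and Cd24 reach 5.21, 4.26 and 4.44 in nodules at 20 weeks, while Epcam stays at 1.56.

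The DEN effect in NT liver at 14 weeks was set against that at 8 weeks by an interaction term (edgeR adjusted p of at most 0.05). The effect was larger at 14 weeks for 4 of the 7 genes, against 4.16% of 11219 genes tested. The log2 difference was 2.87 ± 0.64 for Krt19 (edgeR adjusted p = 0.0161), 2.39 ± 0.65 for Sox9 (0.0329), 2.30 ± 0.55 for Cd24 (0.0199) and 1.39 ± 0.33 for Prom1 (0.0185). For Epcam, Cd44 and Spp1 it was 0.56 ± 0.20, 0.79 ± 0.28 and 1.19 ± 0.40, and the edgeR adjusted p values of 0.0790, 0.0823 and 0.0693 missed the threshold. The Sox9 result was lost on leaving out any of 10 single rats (F09, F10, H05, H06, H07, H09, H10, H11, H21 or H22), with an edgeR adjusted p of up to 0.0894 and a log2 difference between 2.09 and 2.42. Krt19, Cd24 and Prom1 kept theirs in all 19 alternatives. The interaction term also takes in the control livers. Their mean was lower at 14 than at 8 weeks, 1.53 against 2.75 CPM for Krt19 and 0.544 against 0.855 CPM for Prom1, without overlap. For Sox9 (0.648 against 0.765 CPM) and Cd24 (1.52 against 1.68 CPM) the controls of these times overlapped. How much of each difference came from the controls was not tested.

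Between 14 and 20 weeks, after DEN had been stopped, the effect in NT liver was smaller at 20 weeks in the point estimates of all 7 genes, from -0.12 ± 0.61 for Spp1 to -1.08 ± 0.33 for Prom1 on the log2 scale. In no gene of the set did this pass (edgeR adjusted p from 0.127 for Prom1 to 0.948 for Spp1), and over all genes tested 0.738% passed, 83 genes with 1912 at an unadjusted p under 0.05. The interval for Krt19 ran from -2.17 to 0.78 and that for Cd24 from -2.07 to 0.65. The same test of the nodules against controls called none of the 7, and 0.0862% of all genes. Krt19, Sox9, Cd24 and Epcam had differences of 0.63, 0.56, 0.49 and 0.16, and Prom1 one of -0.75 with an interval from -2.06 to 0.55.

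Nodules were then set against the NT liver of the same rats. At 14 weeks 0 of 7 genes were called with edgeR and 0% of 11466 genes, although 1348 genes had an unadjusted p under 0.05 and DESeq2 called 24 genes, none of them in the set. All nodules lay above all NT livers for 0 of 7 genes at 14 weeks (1.11% of all genes) and for 0 of 7 at 20 weeks (0.961%). With the rat as a block 0 genes (0%) were called at 14 weeks and 2518 had an unadjusted p under 0.05. Without the block the log2 fold changes of the set lay between 0.29 ± 0.16 for Epcam and 0.87 ± 0.54 for Krt19. At 20 weeks 0 of 7 genes and 0% of 11546 genes were called without the block, with 2767 genes at an unadjusted p under 0.05. With the rat as a block 5 of the 7 genes rose, against 9.21% of all genes. These were Krt19 by 2.08 ± 0.15 (edgeR adjusted p = 8.79e-05), Cd24 by 1.72 ± 0.09 (1.05e-07), Sox9 by 1.41 ± 0.11 (2.37e-06), Cd44 by 1.02 ± 0.12 (0.000119) and Epcam by 0.90 ± 0.08 (1.30e-05). The unblocked log2 fold changes of these 5 were 2.19, 1.67, 1.40, 1.02 and 0.92, with edgeR adjusted p values of 0.0949 for Krt19, Cd24, Sox9 and Epcam and 0.102 for Cd44. Prom1 with 0.61 ± 0.25 (edgeR adjusted p = 0.0949) and Spp1 with 0.53 ± 0.52 (0.512) were not called with the block. DESeq2 and a fit of all 8 groups also called 5 of the 7 without the block, with 904 and 1096 genes called in all. So did edgeR when rat H25 was left out, with 445 genes in all, and nodule 1 of each rat alone gave 2 of the 7 and 218 genes. The difference between the nodule effects at 14 and 20 weeks, fitted without the block, was not called for any gene of the set, with 0% of 11781 genes called and 195 at an unadjusted p under 0.05. It was 1.33 ± 0.74 for Krt19, 1.20 ± 0.61 for Cd24 and 0.63 ± 0.27 for Epcam (edgeR adjusted p = 0.924 for each). With the rat as a block, a fit added after seeing the data, 1 of the 7 passed, against 0.45% of all genes. This was Cd24, with a difference of 1.19 ± 0.15 (edgeR adjusted p = 0.0116), while Krt19 at 1.15 ± 0.44 (0.303) and Epcam at 0.59 ± 0.12 (0.0752) did not pass.

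Single nodules showed where the genes differed. Krt19, Epcam, Sox9 and Cd44 were each above the NT liver of the same rat in 15 of 16 nodules, Cd24 in 13, Spp1 in 12 and Prom1 in 11. At 20 weeks the Krt19 ratio ran from 1.85 to 6.36 with a median of 4.48, and that of Sox9 from 1.49 to 3.86. The Spp1 ratio ran from 0.368 to 4.98 and that of Prom1 from 0.745 to 4.15. Both nodules of rat H28 had the highest Krt19 levels of the series, 114 and 106 CPM against 17.9 CPM in their NT liver, and Spp1 levels of 0.927 and 1.31 CPM, below the 2.52 CPM of that liver. Nodule H23-T1 held 94.0 CPM of Krt19 with 1.03 CPM of Spp1 and 0.881 CPM of Prom1, and the other nodule of that rat 28.1, 4.12 and 2.52 CPM. Nodules F03-T2 and H21-T1 had the highest Prom1 levels, 5.54 and 5.68 CPM, and the highest Spp1 levels, 9.47 and 5.55 CPM, with 38.3 and 21.9 CPM of Krt19.

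**Figure D3:**
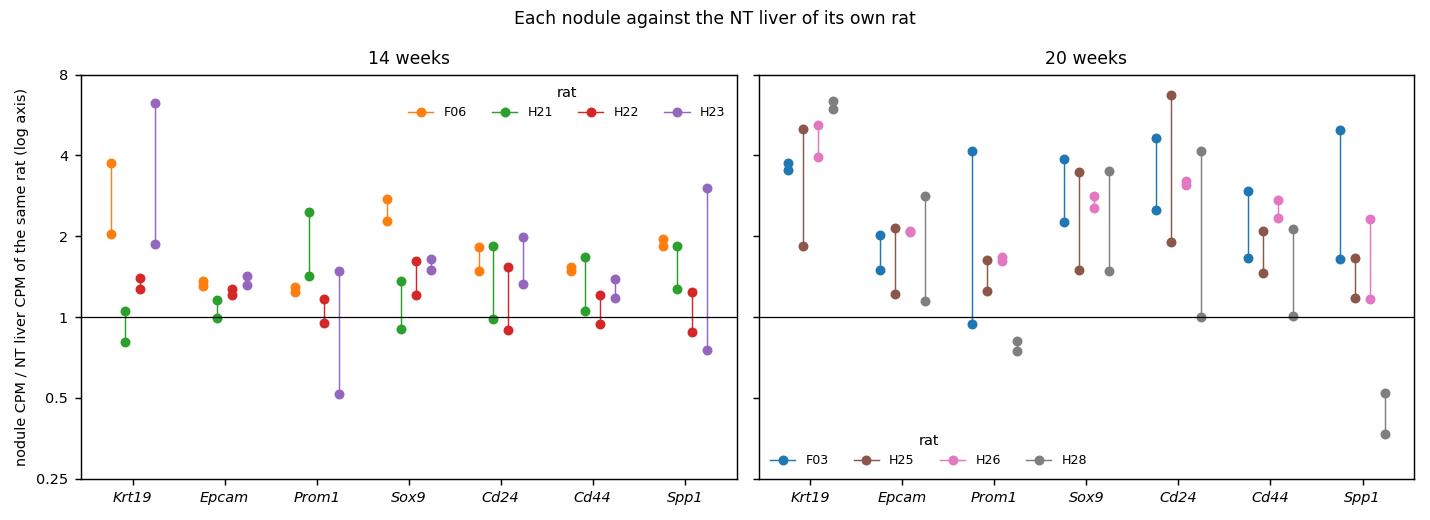
Ratio of the CPM of each nodule to that of the NT liver of the same rat (log axis) for the 7 genes, at 14 weeks (left) and 20 weeks (right), with a line joining the 2 nodules of a rat. Points above 1 are higher in the nodule, as for Krt19 in 15 of 16 nodules, and the long lines for Prom1, Spp1 and Cd24 mark rats whose nodules differed most.

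Nodules of the same rat differed as well. The higher nodule exceeded the lower by up to 4.40-fold for Prom1, 4.16-fold for Cd24, 3.99-fold for Spp1 and 3.35-fold for Krt19, with medians over the 8 rats of 1.26, 1.79, 1.43 and 1.31. For Epcam the median was 1.13 and the highest 2.46, in rat H28, whose nodules had 35.2 and 86.7 CPM. In the same pair Cd24 was 14.6 and 60.9 CPM and Sox9 6.58 and 15.5 CPM, while Krt19, at 114 and 106 CPM, hardly differed.

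Among the 16 nodules, as deviations of log2 CPM from the mean of their time, Sox9 and Cd24 followed each other (Pearson r = 0.93), as did Epcam with Sox9 (0.91) and with Cd24 (0.87). Prom1 followed Spp1 (0.85, and 0.73 without nodules F03-T2 and H21-T1). Krt19 went against Spp1 (-0.57, and -0.89 at 14 weeks and -0.35 at 20 weeks, 8 nodules each) and against Prom1 (-0.41), and Spp1 showed no relation with Cd24 (0.03). These values describe 16 nodules from 8 rats, which share their rat in pairs and share the library scaling, so no test was made.

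**Figure D4:**
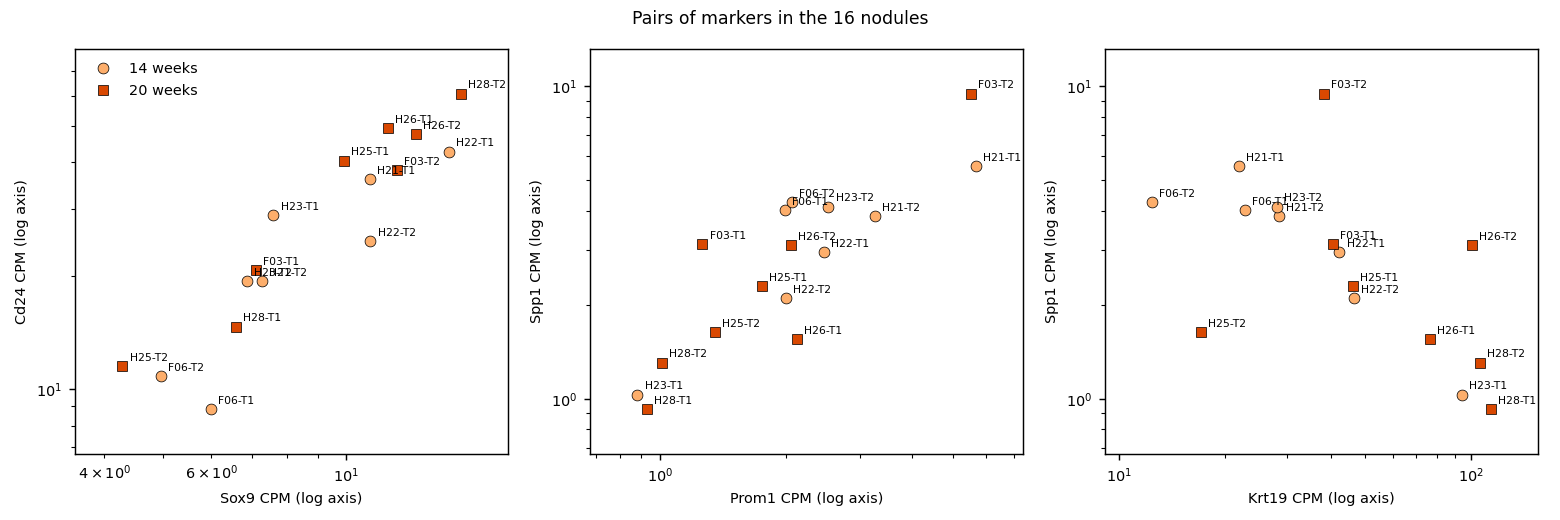
Level of Cd24 against Sox9 (left), Spp1 against Prom1 (middle) and Spp1 against Krt19 (right) in the 16 nodules, in CPM on log axes, with circles for 14 weeks and squares for 20 weeks. Cd24 climbs with Sox9 and Spp1 with Prom1, and of the 4 nodules with the most Krt19, H28-T1, H28-T2 and H23-T1 hold 0.927, 1.31 and 1.03 CPM of Spp1 and H26-T2 holds 3.10 CPM.

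Over all 40 libraries the genes most like each member were sought among 10153 genes with a mean of at least 1 CPM, by Pearson r of log2 CPM. Since the groups differ strongly, the r over deviations from the 8 group means is given after it. For Krt19 they were Akr1c19 (0.98, 0.82), Ggt1 (0.98, 0.85) and Ndrg1 (0.97, 0.84), where Ggt1 encodes gamma-glutamyl transferase, long used as a histochemical marker of altered foci in rat liver. Epcam had Anxa5 (0.97, 0.87), Tes (0.96, 0.82) and Anxa4 (0.96, 0.79). The genes nearest to Prom1 were Dcdc2 (0.92, 0.87), Cftr (0.92, 0.83) and Tspan8 (0.91, 0.78), and those nearest to Spp1 were Tspan8 (0.93, 0.84), Lmcd1 (0.91, 0.75) and Muc1 (0.91, 0.76). Cftr encodes the chloride channel of the bile duct surface, Dcdc2 a protein of the primary cilium, and Muc1 a mucin of ducts. Sox9 had Sox4 (0.97, 0.73), Epdr1 (0.97, 0.72) and Akr1b8 (0.97, 0.71), and Cd24 had Spint1 (0.98, 0.85), Epdr1 (0.98, 0.84) and Sort1 (0.98, 0.87). Cd44 was nearest to Prnp (0.98, 0.78), Cxcl16 (0.97, 0.79) and Lgals3bp (0.97, 0.73). Epdr1 was the gene shared by Sox9 and Cd24, and Tspan8 the gene shared by Prom1 and Spp1. The 40 libraries share rats and scaling, so these r values are descriptions.

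Other genes of biliary epithelium were counted next. Of 17 listed genes 13 or 14 were tested. In NT liver the numbers rising were 2 of 13 after 8 weeks, 9 of 13 after 14 and 8 of 13 at 20, against 7.29%, 13.1% and 4.89% of all genes. In nodules 10 of 14 rose and 2 fell at 14 weeks, and 10 of 14 rose and 1 fell at 20 weeks, where 23.9% and 23.6% of all genes rose and 15.2% fell at each time. Their median log2 fold change was 0.71, 1.83 and 1.41 in NT liver and 2.21 and 2.22 in nodules. In nodules at 20 weeks the largest rises were those of Tff3 (3.54 ± 0.65), a duct peptide, Cldn4 (3.22 ± 0.39), a tight junction protein, Cftr (3.08 ± 0.48) and Bicc1 (2.65 ± 0.27), an RNA-binding protein. Slc4a2, the chloride and bicarbonate exchanger of ducts, fell by 0.55 ± 0.10 (edgeR adjusted p = 0.00134). Slc4a2 also fell at 14 weeks, by 0.62 ± 0.08, with Onecut1, which fell by 1.98 ± 0.66. Tff3 had only 0 to 0.098 CPM in the 20-week controls. In that comparison it passed the count filter through the nodules alone, and its fitted fold depends on few counts. Onecut1 ran from 1.93 to 14.04 CPM among the 14-week controls. The summed level of the list at 20 weeks was 68.7 to 82.8 CPM in control livers, 87.4 to 94.3 CPM in NT liver, without overlap, and 82.3 to 134 CPM in nodules. At 8 and 14 weeks the sums of control and DEN groups overlapped.

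**Figure D5:**
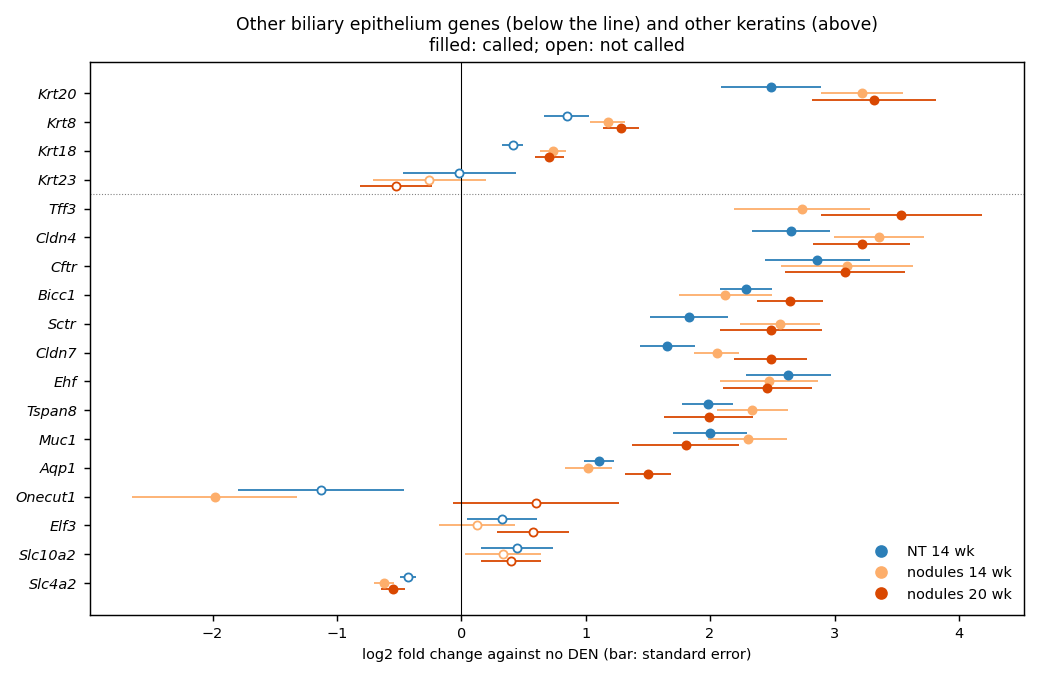
Log2 fold change against control liver (horizontal axis, bars are SE) of other biliary epithelium genes (below the dotted line) and other keratins (above it) in NT liver at 14 weeks and in nodules at 14 and 20 weeks. Filled points were called: most biliary genes lie to the right of 0, as Cftr at 3.08 in nodules at 20 weeks, while Slc4a2 lies to the left at -0.55.

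Of 7 other keratins 3 or 4 were tested, and none was called at 8 weeks (edgeR, 0 of 3, beside 7.29% of all genes called up). Krt20, a keratin of gut epithelium, rose in NT liver at 14 weeks (2.49 ± 0.40) and 20 weeks (1.94 ± 0.35) and in nodules at both times (3.22 ± 0.33 and 3.32 ± 0.50). Krt8 and Krt18, the keratin pair of hepatocytes and of all simple epithelia, rose less, by 1.18 ± 0.14 and 0.74 ± 0.11 in nodules at 14 weeks and by 1.28 ± 0.15 and 0.71 ± 0.12 at 20 weeks, and were not called in NT liver. Krt23 was not called at any time.

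Of the fetal and progenitor genes, 5 of 8 tested rose in nodules at 14 weeks and 5 of 7 at 20 weeks, and in NT liver 3 of 6 rose after 8 weeks, 5 of 8 after 14 and 2 of 5 at 20. The shares of all genes that rose were 23.9% and 23.6% in nodules and 7.29%, 13.1% and 4.89% in NT liver. Thy1, a surface protein of mesenchymal and some progenitor cells, rose by 4.87 ± 0.56 in nodules at 20 weeks, H19, an imprinted fetal RNA, by 4.35 ± 0.61, and Gpc3, a fetal surface proteoglycan, by 3.78 ± 0.39. Thy1 had 0 to 0.147 CPM in the 20-week controls. It too passed the count filter through the nodules alone, and its fitted fold also depends on few counts. The fetal serum protein gene Afp was not called, at -0.22 ± 0.14 and -0.03 ± 0.17, nor was Igf2, at 0.08 ± 0.35 and 0.91 ± 0.85.

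Among partners of osteopontin and CD44, 8 of 13 tested rose and 2 fell in nodules at 14 weeks, and 8 of 12 rose and 2 fell at 20 weeks. Of all genes 23.9% and 23.6% rose at these times and 15.2% fell at each. In NT liver the counts rising were 3 of 11 after 8 weeks, 6 of 12 after 14 and 3 of 12 at 20, against 7.29%, 13.1% and 4.89% of all genes. Itga8, an integrin chain that pairs to bind osteopontin, rose by 3.04 ± 0.26 and 2.59 ± 0.36 in nodules, and Hmmr, a second hyaluronan receptor that is also a mitotic protein, by 3.39 ± 0.43 and 2.59 ± 0.43. Ezr, the cytoskeletal partner of CD44, rose by 2.25 ± 0.21 at 20 weeks, whereas Rdx of the same family fell by 0.61 ± 0.10 and Itga5 fell by 1.26 ± 0.10.

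Of the Notch and YAP genes, which act upstream or downstream of Sox9 in duct formation, 6 of 13 rose and 1 fell in nodules at each time, and in NT liver 0 of 12, 4 of 13 and 1 of 13 rose at 8, 14 and 20 weeks. In nodules 23.9% and 23.6% of all genes rose and 15.2% fell, and in NT liver 7.29%, 13.1% and 4.89% rose. At 8 weeks 4941 genes had an unadjusted p under 0.05 with edgeR. Ankrd1, Cyr61 and Ctgf, targets of YAP, rose by 1.98 ± 0.32, 1.67 ± 0.26 and 1.65 ± 0.16 in nodules at 14 weeks, and Jag1, a Notch ligand, by 1.27 ± 0.24 at 20 weeks. The receptor Notch2 fell by 0.71 ± 0.10 and 0.53 ± 0.09, and the Notch target Hes1 was not called, at -0.06 ± 0.25 and -0.23 ± 0.25. Among signals that drive the reaction, 13 genes were listed and 8 tested. Of these 8, 3 rose and 2 fell in nodules at each time, where 23.9% and 23.6% of all genes rose and 15.2% fell. In NT liver 1, 2 and 1 of 8 rose at 8, 14 and 20 weeks, against 7.29%, 13.1% and 4.89% of all genes. At 14 weeks 1 of 8 also fell, against 2.1% of all genes. The listed genes Fgf7, Il6 and Ltb had no counts in any NT library at 8 weeks. Osmr, the oncostatin M receptor, rose by 2.73 ± 0.44 and 2.33 ± 0.35 and Tnfrsf12a, the TWEAK receptor, by 1.94 ± 0.18 and 1.81 ± 0.19. Egfr fell by 2.14 ± 0.22 and 1.69 ± 0.31 and Met by 1.48 ± 0.36 and 1.02 ± 0.24, both of them growth factor receptors of hepatocytes.

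Markers of other liver cells moved in the same comparisons, in which 7.29%, 13.1% and 4.89% of all genes rose in NT liver at 8, 14 and 20 weeks and 23.9% and 23.6% in nodules at 14 and 20 weeks. Hepatocyte genes summed to 296533 to 349450 CPM in control livers, 197434 to 246427 CPM in NT liver at 14 weeks and 138459 to 265315 CPM in nodules at 20 weeks. In nodules 8 of 11 hepatocyte genes fell and 1, Apoa1, rose at each time, where 15.2% of all genes fell at 14 weeks and 15.2% at 20 weeks. In NT liver 1 of 11, Ttr, fell at 14 weeks, against 2.1% of all genes. The macrophage list summed to 256 to 768 CPM in control livers, 373 to 865 CPM in NT liver and 407 to 785 CPM in nodules, and 5 of 10 and 5 of 9 of its genes rose in nodules at 14 and 20 weeks. In NT liver 2, 3 and 2 of its 9 tested genes rose at 8, 14 and 20 weeks. Gpnmb and Lgals3 rose already in NT liver at 8 weeks, by 1.16 ± 0.18 and 1.23 ± 0.19, and Cd68 rose by 0.60 ± 0.13 in nodules at 20 weeks, while the Kupffer cell gene Clec4f was not called at any time. Lymphocyte genes summed to 10.9 to 23.6 CPM in control livers and to 38.1 to 43.1 CPM in NT liver at 8 weeks, where 5 of 8 rose. In NT liver 1 of 6 rose at 14 weeks and 0 of 7 at 20 weeks, and in nodules 5 of 8 and 4 of 8 rose, at sums of 18.9 to 47.4 and 20.6 to 29.6 CPM. Stellate and myofibroblast genes summed to 195 to 284 CPM in control livers, 403 to 540 CPM in NT liver at 8 weeks, 416 to 547 CPM at 14 weeks and 282 to 299.6 CPM at 20 weeks, with 7, 7 and 1 of 11 genes called up. In nodules they summed to 468 to 613 CPM at 14 weeks and 297 to 472 CPM at 20 weeks, with 8 of 11 called up at each time, and Col1a2 was listed at 0 in every library. Endothelial genes summed to 73.0 to 174 CPM in control livers and 182 to 276 CPM in nodules at 20 weeks, where 7 of 8 rose. In nodules at 14 weeks 7 of 8 rose too, at 199 to 266 CPM, and in NT liver 0, 6 and 1 of 8 rose at 8, 14 and 20 weeks, at 217 to 224, 206 to 257 and 184 to 241 CPM. The 7 genes of the set summed to 20.3 to 28.8 CPM in control livers, 39.1 to 50.3 CPM in NT liver at 8 weeks, 55.7 to 131 CPM at 14 weeks and 45.9 to 80.5 CPM at 20 weeks, and 87.5 to 190 and 67.6 to 291 CPM in nodules. The part of any of these cells in the changes of the set was not tested.

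Against NT liver of the same rats at 20 weeks, with the rat as a block, 6 of 14 other biliary genes rose and 1 fell, led by Tff3 (1.57 ± 0.28), Cldn7 (1.06 ± 0.16), Cldn4 (1.05 ± 0.31) and Sctr (1.05 ± 0.25). In the same test 0 of 8 lymphocyte and 0 of 8 endothelial genes rose, 3 of 10 macrophage genes rose and 1 fell, 3 of 11 stellate genes rose, and 4 of 11 hepatocyte genes fell, where 9.21% of all genes rose and 5.46% fell. The rats with letter F, 4 of 12 DEN rats, had no controls of their own letter. With them left out all 7 genes still rose in NT liver at 14 weeks and in nodules at both times.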

How the data were processed

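Polyadenylated RNA of rat liver was sequenced as strand-specific 75-base read pairs (TruSeq Stranded mRNA, 15 cycles of PCR, no molecular identifiers). The deposited values were raw counts per gene, which the authors made by aligning to rn6 with STAR 2.7.1a and counting pairs inside exons with HTSeq 0.11.2, without pairs that aligned to several places. The summary lines of the counting, 32.8% to 45.4% of the entries of a library, were kept out of all totals. Groups and rats were taken from the sample labels. For tests the 2 nodules from each animal were summed, which made the rat the unit. Genes were filtered with filterByExpr, scaled by TMM and tested, 2 groups at a time, with the 2-sided quasi-likelihood F test of edgeR 4.0.16 in R 4.3.3 (robust fit). The filter keeps a gene that has enough counts in any single group. A gene near 0 in controls can thus enter a list count through the group where it is high, and the number tested differs between comparisons. SE values come from these fits, with 95% intervals, and CPM of a rat from its summed counts. Likeness and deviations used log2 CPM with a prior count of 2. The study's methods name DESeq2 for counts, and DESeq2 1.42.0, other scaling, no filter, a fit of all 8 groups, rats left out, single nodules and the rat as a block were the alternatives. NT liver and nodules came from the same rats, and their deviations from group means correlated at 0.37 to 0.54 at 14 weeks and 0.47 to 0.54 at 20 weeks in the 4 rats of each time. No 2 libraries of a group agreed within sampling noise (lowest chi-square over its degrees of freedom 12.9). All members are named, and from each other list the largest changes called and the most abundant genes not called. The members and the lists were chosen with earlier results of these data known. Labels give separate rats, so p-values measure the spread between rats. 1 listed biliary gene is not reported here and is left out of the counts of its list.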

Additional observations from a re-analysis of the deposited data

Results flagged for a closer look

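Among 56 sets of values, 1 per gene and group, 6 held a library that stood apart from the others by Dixon's test at the 95% level. For independent values chance alone gives this in about 1 set in 20. The nodule sets hold 2 nodules from each of 4 rats, which are not independent, so that rate does not apply to them. Krt19 was 94.0 CPM in nodule H23-T1 at 14 weeks, where the next nodule had 46.4 CPM. Prom1 was 5.54 CPM and Spp1 9.47 CPM in nodule F03-T2 at 20 weeks, where the next values were 2.12 and 3.13 CPM. Cd44 was 21.8 CPM in nodule H21-T1 at 14 weeks. Among control livers at 20 weeks, Prom1 was 0.929 CPM in rat H15, above the others, and Cd44 was 1.36 CPM in rat H16, below the others. Both nodules that stood apart in Prom1, Spp1 or Cd44, F03-T2 and H21-T1, came from rats whose other nodule held 1.26 and 3.26 CPM of Prom1.

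The effect of DEN in NT liver was larger at 14 than at 8 weeks for 4 genes by the interaction test of edgeR, with log2 differences of 2.87 for Krt19, 2.39 for Sox9, 2.30 for Cd24 and 1.39 for Prom1. Sox9 was called in only 6 of 16 fits with 1 rat left out, and Krt19, Cd24 and Prom1 in all 16. Control livers were lower at 14 than at 8 weeks for Krt19 and Prom1, without overlap, and this enters their differences. With the rat as a block, the effect in nodules against NT liver was larger at 20 than at 14 weeks for Cd24, with a log2 difference of 1.19. Each NT liver at 14 weeks exceeded each NT liver at 8 weeks for Sox9, Cd24 and Prom1. The same held for Epcam and Cd44, whose interaction was not called, and not for Spp1. For Krt19 rat F06 at 14 weeks (6.09 CPM) lay between 6.04 and 6.23 CPM of 2 rats at 8 weeks. The share of all genes that separated in this way was not counted.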

How the results depend on the processing

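All 7 genes kept direction and call in NT liver at 14 weeks in 98 of 98 combinations of gene and alternative, and in nodules against controls in 119 of 119 at each time. At 8 weeks the number of members called fell from 2 to 1 with all 8 groups in the fit and without the F rats, and 1 call was gained with upper-quartile scaling, that of Spp1. For nodules against NT liver at 14 weeks, DESeq2 called 24 genes and each nodule as its own sample 1. At 20 weeks the unblocked edgeR fit called 0 genes and 0 members, DESeq2 904 and 5, the fit of all 8 groups 1096 and 5, nodule 1 alone 218 and 2, and the replicate block 1693 and 5. With the block, a fit added after seeing the data, the nodule effect against NT liver differed between 14 and 20 weeks for 53 genes and 1 member, Cd24, against 0 and 0, and the difference of Spp1 was -0.077. The block on the rat changed no other call of the set. Without the F rats, 182 genes differed in the effect on NT liver between 14 and 20 weeks against 83, and sign changed in nodules between those times for Spp1 against controls (-0.61) and for Prom1 and Spp1 against NT liver (-0.13 and -0.44). None of those 3 differences was called.

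Leaving out 1 rat at a time gave 661 to 1004 genes and 2 to 3 members in NT liver at 8 weeks, 1533 to 1786 genes and 7 members at 14 weeks, and 250 to 649 genes and 4 to 5 members at 20 weeks, where the count fell most without controls H16 (250), H14 (325) and H15 (343). Nodules gave 4006 to 4686 and 3869 to 4671 genes against controls, and 0 to 445 genes and 0 to 5 members against NT liver at 20 weeks, the 445 and 5 without H25. The 8 to 14 week interaction gave 533 to 1870 genes (533 without H21, 595 without F09, 602 without H10, 618 without H07, 622 without H11, 1760 without F06, 1870 without H17) and 3 to 6 members. The 14 to 20 week interaction in NT liver gave 31 to 408 genes (408 without H26, 386 without F06, 234 without H28, 48 without H11, 47 without H25, 42 without H10, 35 without F03, 33 without H21, 31 without H22) with Sox9 from -0.73 to 0.078 and Spp1 from -0.41 to 0.71, and in nodules 6 to 15 genes (6 without F03, H11, H14, H16 or H25) with Cd44 from -0.24 to 0.12 and Spp1 from -0.71 to 0.88. Against NT liver that of Prom1 ran from -0.11 to 0.64 and that of Spp1 from -0.57 to 0.65. The causes were not tested.

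With 4 rats a group, low levels limit Prom1, Sox9 and Spp1, whose control libraries held as few as 4 to 9 counts. Pairs with several alignments were not counted, and Krt7 was not analysed here.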
